A study of Mus musculus with 10 samples.

Results

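The 10 genes described here, known as targets or partners of the transcription factor p53 that serve cell cycle arrest and feedback, were chosen by name: Cdkn1a, Mdm2, Ccng1, Btg2, Plk2, Plk3, Zmat3, Psrc1, Trp53inp1 and Trp53, of 18193 genes with a probe set of 1 gene symbol. Of the 10, 9 had such a probe set, and all 9 passed the filter on low values (log2 5 or more on at least 2 arrays) that left 14988 genes to test. Trp53, the gene of p53 itself, had no probe set with exactly 1 gene symbol in the annotation used, so its RNA is not analysed here. Probe sets with several symbols were left out. These 9 genes had 19 probe sets in all. The brightest by mean over the 10 arrays represents each gene, and the other 10 served as a check.

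Lung RNA of ICR mice was measured on single-colour Affymetrix arrays in a model of bronchopulmonary dysplasia, a chronic lung disease of preterm infants given oxygen. Pups were pooled and randomised within 12 hours of birth to 80% oxygen or to room air, for 14 days (P14) or 29 days (P29), while nursing dams were rotated between the exposures. The 4 groups, all of lungs with no allele or further agent named, are P14 room air (n = 2 arrays, labelled WT), P14 hyperoxia (n = 3, labelled BPD), P29 room air (n = 2) and P29 hyperoxia (n = 3). Whether each array held a separate animal is not given in the sources used here, and p-values here speak only of the spread among these samples, which may be technical. Precision is limited by having 2 or 3 arrays a group. In whole lung, a change in the number of cells of a type and a change in RNA per cell cannot be told apart.

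The transcription factor p53 is held at a low level by Mdm2, a ubiquitin ligase that marks it for destruction. DNA damage and other stress release p53 from this control, and it then activates genes that stop the cell cycle, repair DNA or start cell death. Mdm2 is itself a p53 target, which closes a feedback loop. Cdkn1a encodes p21, which binds cyclin-dependent kinases and holds cells before DNA replication. High oxygen damages DNA, and induction of p21 in the lung is a known part of the response of rodents to it.

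Several facts of the arrays bear on all results below. The 10 lung tissue markers were present, with surfactant protein C (Sftpc) at 14.66 to 14.89 on the log2 scale; 2 of them rose and 2 fell with oxygen at P14, and 2 rose and 6 fell at P29. Surfactant protein B (Sftpb) fell by 1.55 ± 0.18 (SE) and 1.74 ± 0.18, the endothelial marker Pecam1 fell by 0.88 ± 0.10 and 1.32 ± 0.10, and the ciliated cell factor Foxj1 rose by 0.76 ± 0.13 and 0.46 ± 0.13. Actin control probe sets at the 3' end exceeded those at the 5' end, a sign of RNA quality, by 1.33 to 2.21 (log2) in the 6 hyperoxia samples. In the 4 room-air samples the excess was 0.32 to 0.74, with no overlap. Transcripts of the Y chromosome were present on all 5 P14 arrays and absent from both P29 room-air arrays, whereas at P29 in hyperoxia the 3 arrays differed. There replicate 1 had Y-linked transcripts and Xist at 7.12, replicate 2 had Xist at 12.54 and no Y-linked signal, and replicate 3 had both, with Xist at 11.94 and the Y-linked mean at 7.71. Neutrophil markers fell in 6 of 6 genes at P14 and 5 of 6 at P29. Their mean log2 levels were 7.04 to 7.17 in P14 hyperoxia against 8.57 to 8.60 in room air, and 6.77 to 6.80 against 8.40 to 9.01 at P29. The 4 measured T cell markers fell at both ages, and were at 5.57 to 5.68 against 6.42 to 6.44 at P14 and at 6.02 to 6.16 against 7.81 to 7.93 at P29. Of the other markers measured, B cell genes fell in 3 of 4 at P14 and 4 of 4 at P29, fat cell genes in 1 of 3 and 3 of 3, and red blood cell genes in 1 of 2 and 1 of 2. Cardiac muscle genes rose in 3 of 5 at P14, and at P29 1 rose and 3 fell. Of 5 macrophage genes 2 rose and 2 fell at P14, and 2 fell at P29. These marker counts can be read against all genes, of which 32.3% rose and 22.8% fell at P14. At P29 34.2% of all genes rose and 25.6% fell. The lung tissue markers at P14, 20% up and 20% down, did not exceed those shares. The part of RNA quality, sex and cell make-up in the results was not tested beyond the alternatives given. In room air, Y-linked transcripts were present on all P14 arrays and on no P29 array, so age and sex cannot be told apart there. Below, a rise or fall with age in room air names only the difference between those 2 groups. The oxygen comparison at P29 set 2 arrays without Y-linked transcripts against 3, of which replicates 1 and 3 had them. Sex is thus not balanced in it, nor in the difference between the oxygen effects of the 2 ages.

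The first question was how these genes stood after oxygen at each age. All 9 rose at P14, and 7 of 9 rose at P29, with a median log2 difference of 0.74 at P14 and 0.95 at P29 against 0.04 for all genes at both ages. On limma's test with Benjamini-Hochberg adjusted p under 0.05, 32.3% of all genes were higher, 22.8% lower and 55% called in either direction at P14. At P29 these shares were 34.2%, 25.6% and 59.7%. The split depended on the scaling of the arrays: of the calls 58.6% were higher at P14 and 57.2% at P29, but 44.7% and 40.8% when the 75th percentile of every array was made equal. Every hyperoxia array lay above every room-air array of its age for 9 of 9 genes at both ages, which also held for 39.6% of all genes at P14 and 41.2% at P29. With the excess of 3' over 5' actin signal added to the model, which moves with the exposure, 5 of 9 genes were called higher at P14 and 7 of 9 at P29, where that model called 5.42% and 10.9% of all genes higher.

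**Figure D1:**
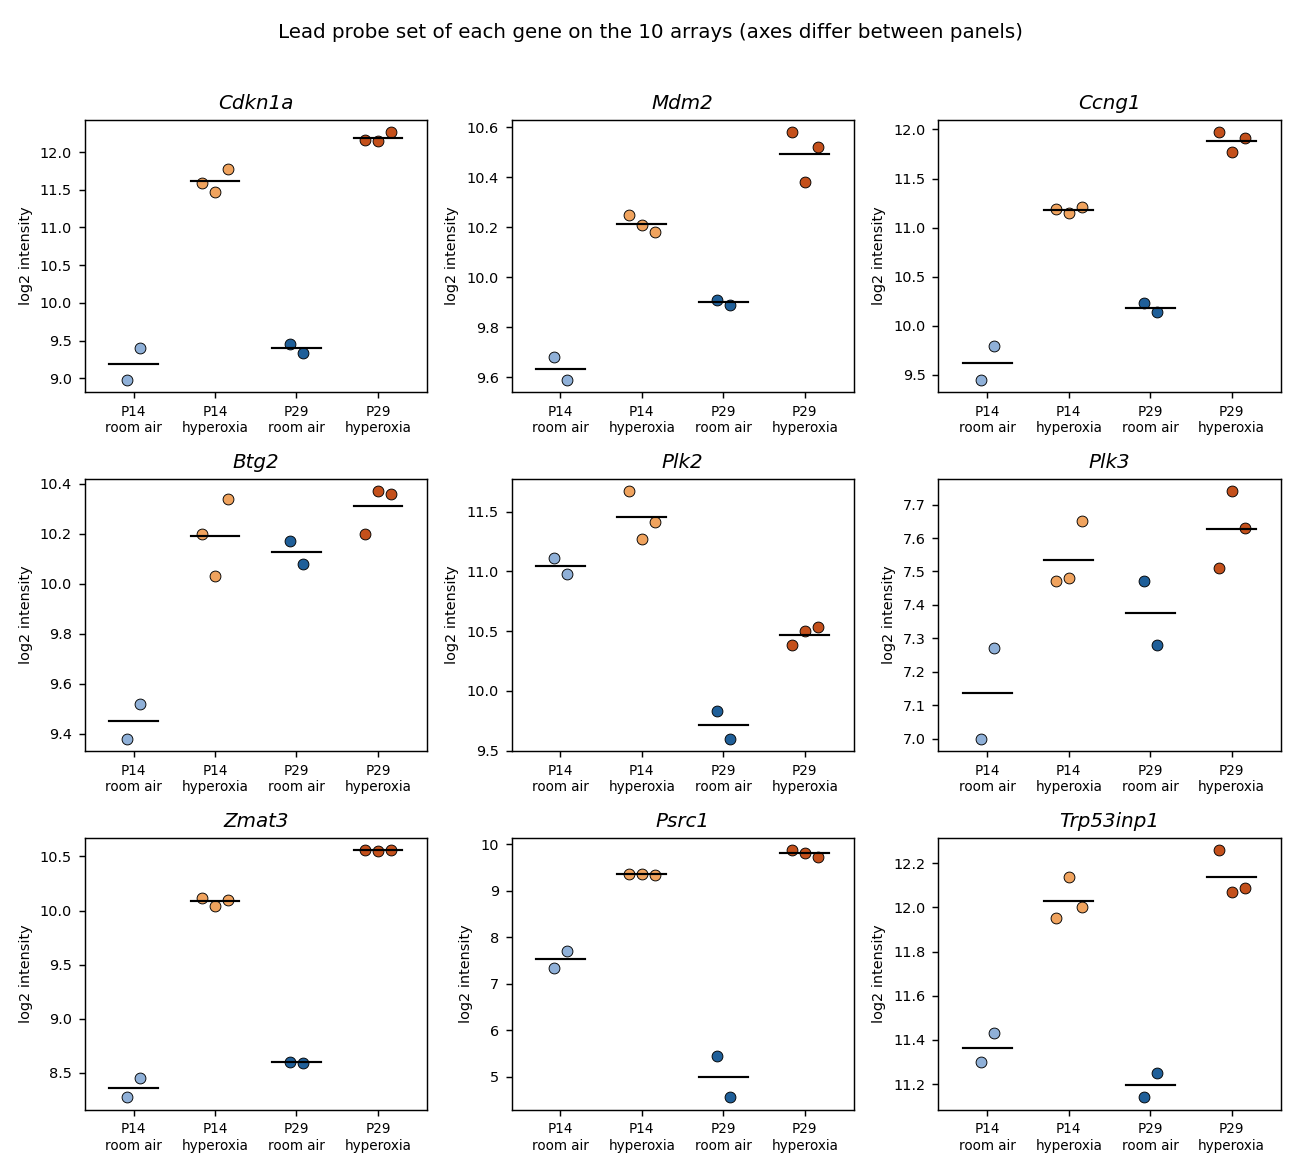
Log2 intensity of the lead probe set of 9 p53 target genes (one panel each, own vertical axis) on the 10 arrays in 4 groups; points are arrays and bars are group means. In Cdkn1a, Ccng1 and Zmat3 the hyperoxia arrays stand far above the room-air arrays at both ages, and in Psrc1 the P29 room-air arrays lie at 5.45 and 4.56 while all hyperoxia arrays lie at 9.34 or above.

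Cdkn1a, the inhibitor of cyclin-dependent kinases, had the strongest rise of the 9 at P14 on the lead probe sets. It was at 8.98 and 9.40 in P14 room air and at 11.59, 11.47 and 11.77 in P14 hyperoxia. At P29 it was at 9.46 and 9.34 in room air and at 12.16, 12.15 and 12.26 in hyperoxia. All hyperoxia arrays lay above all room-air arrays, and the P29 hyperoxia arrays lay above the P14 ones. The rise was 5.34-fold at P14 (log2 2.42 ± 0.13, SE; limma adjusted p = 3.97e-07) and 6.93-fold at P29 (2.79 ± 0.13; adjusted p = 8.29e-08). Among 14988 genes the differences ranked 21st from the highest at P14 and 32nd at P29.

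A dimmer probe set of Cdkn1a gave rises of 1.94 ± 0.12 (SE) at P14 and 2.55 ± 0.12 at P29. Between the ages Cdkn1a was higher at P29 than at P14 in hyperoxia by 0.58 ± 0.11 (adjusted p = 0.00308) and differed by 0.21 ± 0.14 in room air (adjusted p = 0.263), where the arrays overlapped. With the female array alone standing for P29 hyperoxia, the difference in hyperoxia was 0.54. All P14 hyperoxia arrays had Y-linked transcripts, so age in hyperoxia and sex cannot be told apart in that setting. Here and in later uses of it, the lone array is assumed to vary like the other groups. On the lead probe set the oxygen effects at P29 and P14 did not differ past the threshold (0.38 ± 0.18; adjusted p = 0.159). On the dimmer one they did, by 0.60 ± 0.16 (adjusted p = 0.035, over 34945 probe sets), and the lead also passed without P14 room air replicate 1, at 0.59 (adjusted p = 0.027).

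RefSeq (GRCm38.p6) lists promoter windows, from 250 bases before to 50 after a start, for 8 of the 10 genes, which hold 10 windows. The windows of the 3 genes below are shown because p53 binds DNA as a pair of half-sites and these genes held at least 1 match to the half-site and were measured. Both strands were searched, and the matches to the p53 half-site are in capitals.
Cdkn1a, upstream start, chr17:29090729-29091028, plus strand: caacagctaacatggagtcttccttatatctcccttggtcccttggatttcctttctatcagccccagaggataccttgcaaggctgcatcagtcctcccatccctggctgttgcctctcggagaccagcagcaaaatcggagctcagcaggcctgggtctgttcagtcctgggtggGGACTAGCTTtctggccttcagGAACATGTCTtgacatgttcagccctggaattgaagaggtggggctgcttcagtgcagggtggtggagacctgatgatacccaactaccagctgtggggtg
Mdm2, chr10:117710709-117711008, minus strand: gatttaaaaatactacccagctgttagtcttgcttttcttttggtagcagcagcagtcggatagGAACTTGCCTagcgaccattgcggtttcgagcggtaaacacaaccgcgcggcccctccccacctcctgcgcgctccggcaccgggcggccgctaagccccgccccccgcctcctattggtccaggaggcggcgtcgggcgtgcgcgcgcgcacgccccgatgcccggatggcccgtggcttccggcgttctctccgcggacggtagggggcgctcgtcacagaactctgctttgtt
Ccng1, chr11:40755237-40755536, minus strand: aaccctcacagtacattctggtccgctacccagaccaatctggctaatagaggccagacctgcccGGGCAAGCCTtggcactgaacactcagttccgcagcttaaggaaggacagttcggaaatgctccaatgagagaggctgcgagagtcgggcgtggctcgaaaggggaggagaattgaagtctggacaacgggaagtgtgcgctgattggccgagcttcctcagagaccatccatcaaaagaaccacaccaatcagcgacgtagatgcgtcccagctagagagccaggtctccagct
A perfect half-site stood in 4 of 8 genes (Cdkn1a, Mdm2, Ccng1 and Trp53), in 4 of their 10 windows, and in 8.36% of 32851 windows of all genes. The Cdkn1a window belongs to a start 2790 bases upstream of the other, and that other window held no match. Its second match opens a run of 20 bases, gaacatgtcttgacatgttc, that forms 2 adjacent half-sites with 1 mismatch. Ccng1 also held such a run, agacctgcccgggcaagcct, with 1 mismatch. A run of adjacent half-sites with at most 2 mismatches outside the C and G of each core stood in 0.326% of all windows; this rule was set after the Cdkn1a window was read. These are matches of letters in short windows, and binding was not measured.

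Mdm2, the ligase that returns p53 to a low level, rose by less than Cdkn1a. Its lead probe set read 9.68 and 9.59 in P14 room air, and 10.25, 10.21 and 10.18 in P14 hyperoxia. Values at P29 were 9.91 and 9.89 in room air, and 10.58, 10.38 and 10.52 in hyperoxia. The groups did not overlap, and each exposure also stood higher at P29 than at P14. The rise was 1.49-fold at P14 (0.58 ± 0.08, SE; limma adjusted p = 0.000176) and 1.51-fold at P29 (0.60 ± 0.08; adjusted p = 0.000108), and the effects differed by 0.02 ± 0.12 (adjusted p = 0.941).

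A dimmer Mdm2 probe set gave 0.42 ± 0.16 at P14 (adjusted p = 0.0587) and 0.47 ± 0.16 at P29 (adjusted p = 0.0361). The remaining one read 4.20 to 4.76 on all arrays and gave -0.06 ± 0.13 and 0.02 ± 0.13. The increase of Mdm2 with age was 0.27 ± 0.09 in room air (adjusted p = 0.0332) and 0.28 ± 0.07 in hyperoxia (adjusted p = 0.0144). The first did not pass without P14 room air replicate 2 (0.22; adjusted p = 0.142) and lost its call in 4 of 10 cases when single arrays were left out. The second did not pass without P29 hyperoxia replicate 1 (0.24, adjusted p = 0.0622). The female array alone gave 0.17, again against P14 arrays that all had Y-linked transcripts.

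Ccng1, or cyclin G1, binds a phosphatase that acts on Mdm2 and so belongs to the same feedback. On the lead probe set it read 9.45 and 9.79 in P14 room air and 11.19, 11.15 and 11.21 in P14 hyperoxia. In the P29 groups it read 10.23 and 10.14 in room air and 11.97, 11.77 and 11.91 in hyperoxia. The 4 groups were fully separate, with P14 room air lowest and P29 hyperoxia highest. Ccng1 was 2.95-fold higher at P14 (1.56 ± 0.10, SE; limma adjusted p = 1.79e-06) and 3.25-fold higher at P29 (1.70 ± 0.10; adjusted p = 5.3e-07).

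With age Ccng1 rose in room air by 0.56 ± 0.11 (adjusted p = 0.00232) and in hyperoxia by 0.70 ± 0.09 (adjusted p = 0.00033). Its 2 other probe sets also rose, by 0.80 ± 0.12 and 0.60 ± 0.10 at P14 and by 0.84 ± 0.12 and 0.88 ± 0.10 at P29. The direction was thus shared by the 3 probe sets of the gene, while the lead gave the larger size.

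Zmat3, a zinc finger protein that binds RNA and acts in p53-dependent growth control, varied little between arrays of a group. It was measured by 1 probe set, at 8.27 and 8.45 in P14 room air and 10.12, 10.04 and 10.10 in P14 hyperoxia. Its P29 values were 8.60 and 8.59 in room air, and 10.56, 10.55 and 10.56 in hyperoxia. The pooled SD within groups was 0.06 on the log2 scale, lower than for all but 8.3% of genes. The rises were 3.31-fold (1.73 ± 0.08, SE; limma adjusted p = 1.46e-07) and 3.90-fold (1.96 ± 0.08; adjusted p = 3.61e-08), and they differed by 0.24 ± 0.11 (adjusted p = 0.148). In hyperoxia Zmat3 was higher at P29 by 0.47 ± 0.07 (adjusted p = 0.000618). In room air the difference of 0.23 ± 0.09 lay at the threshold (adjusted p = 0.0495) and did not pass without P14 room air replicate 1 (0.14; adjusted p = 0.249); over all single arrays left out in turn, lost its call in 9 of 10 cases.

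Trp53inp1 encodes a nuclear protein that helps p53 activate its targets. Its lead probe set was bright, at 11.30 and 11.43 in P14 room air and 11.95, 12.14 and 12.00 in P14 hyperoxia. At P29 the room-air arrays were at 11.14 and 11.25 and the hyperoxia arrays at 12.26, 12.07 and 12.09. The exposures were separate at both ages, while the 2 hyperoxia groups overlapped. Trp53inp1 rose 1.58-fold at P14 (0.66 ± 0.09, SE; limma adjusted p = 0.000176) and 1.93-fold at P29 (0.95 ± 0.09; adjusted p = 1.13e-05). The second probe set, at 6.64 to 7.25 on all arrays, gave 0.00 ± 0.15 and 0.20 ± 0.15 with overlapping arrays. With the actin term the P14 difference was 0.65 ± 0.22 (adjusted p = 0.0825), of like size but with a larger SE.

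Psrc1, a spindle-associated protein whose gene is also a p53 target, stood lowest in P29 room air. It read 7.35 and 7.71 in P14 room air and 9.37, 9.37 and 9.34 in P14 hyperoxia. At P29 the room-air arrays were at 5.45 and 4.56, and the hyperoxia arrays were at 9.88, 9.81 and 9.73. The 2 P29 room-air values lie around the filter of log2 5, and the deposited values carry no detection calls. Whether Psrc1 was above background there is therefore not shown, and the sizes of the 3 comparisons with that group are not settled on this probe set. As computed, the log2 difference with age in room air was -2.53 ± 0.22 (SE; limma adjusted p = 4.6e-06), while in hyperoxia the level at P29 differed from P14 by 0.45 ± 0.18 (adjusted p = 0.0892). The rise with oxygen was 3.55-fold at P14 (1.83 ± 0.20; adjusted p = 3.65e-05), and the computed difference at P29 was 4.80 ± 0.20 (adjusted p = 4.64e-08).

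The computed oxygen effects on Psrc1 differed by 2.97 ± 0.28 (adjusted p = 5.77e-05), with the same limit. A second probe set stayed above the filter on all arrays, at 7.19 and 7.18 in P14 room air, 7.58, 7.54 and 7.43 in P14 hyperoxia, 6.78 and 6.70 in P29 room air and 8.10, 8.05 and 8.05 in P29 hyperoxia. For oxygen and for age in room air it gave the same directions at smaller size, with 0.33 ± 0.08 at P14, 1.33 ± 0.08 at P29 and -0.45 ± 0.09. Its oxygen effects also differed (adjusted p = 0.000404). In hyperoxia it was called higher at P29 than at P14, by 0.55 ± 0.08 (limma adjusted p = 0.000599). The dimmest probe set lay at 3.36 to 4.29 on all arrays and gave -0.07 ± 0.13 at P14 and a rise of 0.55 ± 0.13 at P29. The 2 P29 room-air arrays differed by more than any other arrays of a group, and Psrc1 had a pooled SD of 0.28, above 97.8% of genes.

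Psrc1 moved beside the 15 mitosis genes examined with it. Of all genes 32.3% rose with oxygen at P14 and 34.2% at P29, and 19.1% fell with age in room air. Of the 15 mitosis genes, 11 rose at P14 (73.3%) and 15 at P29 (100%), with medians of 0.55 and 2.11. With age in room air 15 of 15 fell, with a median of -2.01. Their mean log2 level was 8.01 to 8.31 in P14 room air, 8.50 to 8.81 in P14 hyperoxia, 6.01 to 6.26 in P29 room air and 8.04 to 8.11 in P29 hyperoxia. With age in hyperoxia 14 of the 15 fell (median -0.56), against 11.7% of all genes. Psrc1 differed there by 0.45 on its lead probe set and was not called. Its second probe set was called higher there, by 0.55 ± 0.08, opposite to the mitosis genes. The proliferation marker Mki67 rose by 0.84 ± 0.13 (SE) at P14 and 2.97 ± 0.13 at P29.

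Btg2, an antiproliferative protein induced by p53 and by growth signals, gave a different result on each of its 2 bright probe sets. On the lead it was at 9.38 and 9.52 in P14 room air and 10.20, 10.03 and 10.34 in P14 hyperoxia. At P29 it was at 10.17 and 10.08 in room air and 10.20, 10.37 and 10.36 in hyperoxia. The P14 room-air arrays stood alone below all others. The P14 rise was 1.67-fold (0.74 ± 0.10, SE; limma adjusted p = 0.000153), the P29 difference was 0.19 ± 0.10 (adjusted p = 0.138), and Btg2 rose with age in room air by 0.67 ± 0.11 (adjusted p = 0.000549). With the actin term the P14 difference was 0.44 (adjusted p = 0.196).

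The second Btg2 probe set read 9.61 and 9.50 in P14 room air and 9.55, 9.46 and 9.61 in P14 hyperoxia, with overlap. Its P29 values were 10.41 and 9.97 in room air and 9.64, 9.64 and 9.73 in hyperoxia. It thus differed by -0.01 ± 0.12 at P14 and fell by 0.52 ± 0.12 at P29 (adjusted p = 0.00502). The probe sets shared the rise with age in room air (0.63 ± 0.13 on the second) and the sign of the difference between the oxygen effects, at -0.56 ± 0.14 on the lead (adjusted p = 0.0177) and -0.50 ± 0.17 on the second (adjusted p = 0.0875). The lead's difference did not pass without P14 room air replicate 1 (-0.49; adjusted p = 0.0585) or P29 room air replicate 1 (-0.51; adjusted p = 0.0663); the female array alone for P29 hyperoxia gave -0.50 (adjusted p = 0.0942).

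Plk2 and Plk3 encode polo-like kinases that are induced by p53 and by growth signals and act at cell cycle checkpoints. Plk2 was at 11.11 and 10.98 in P14 room air and 11.67, 11.27 and 11.41 in P14 hyperoxia, and at P29 it was at 9.83 and 9.60 in room air and 10.38, 10.50 and 10.53 in hyperoxia. Both exposures were lower at P29 than at P14, with no overlap. The fall with age was 2.51-fold in room air (-1.33 ± 0.13, SE, limma adjusted p = 1.28e-05). In hyperoxia it was 1.97-fold (-0.98 ± 0.11, limma adjusted p = 9.56e-05). On the lead probe sets Plk2 was the only one of the 9 to fall with age in hyperoxia. A second, dim Plk2 probe set gave -0.14 ± 0.27 with age in room air and 0.04 ± 0.22 in hyperoxia, neither called.

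Against the fall with age on its lead probe set, Plk2 rose there with oxygen by 0.41 ± 0.12 at P14 (limma adjusted p = 0.0145). At P29 the rise was 0.76 ± 0.12 (limma adjusted p = 0.000301). The P14 call rests on small margins, as it did not pass without P14 room air replicate 2 (0.34, adjusted p = 0.0944) or with 75th percentile scaling (0.31, adjusted p = 0.0566). With the actin term it also did not pass, where both the difference and its SE were larger (0.67 ± 0.26, adjusted p = 0.126). For oxygen the dim Plk2 probe set, at 4.42 to 5.35, gave -0.46 ± 0.25 at P14 and -0.27 ± 0.25 at P29 with overlapping arrays. The mean of both probe sets gave -0.03 at P14 (limma adjusted p = 0.873) and 0.24 at P29 (limma adjusted p = 0.151).

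Plk3, on its 1 probe set, was at 7.00 and 7.27 in P14 room air and 7.47, 7.48 and 7.65 in P14 hyperoxia. At P29 it was at 7.47 and 7.28 against 7.51, 7.74 and 7.63. The P14 rise was 1.32-fold (0.40 ± 0.11, SE; limma adjusted p = 0.0103) and the P29 difference was 0.25 ± 0.11 (adjusted p = 0.0666). Without P14 room air replicate 1 the P14 difference was 0.26 (adjusted p = 0.122), and with the actin term it was 0.09 (adjusted p = 0.832). The P29 difference passed without either P14 room-air array, at 0.25 (adjusted p = 0.0477), and without P29 hyperoxia replicate 1, at 0.31 (adjusted p = 0.0484).

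Promoter windows of Btg2 and Plk2 are shown because they were the only ones of the 10 with the palindrome TGACGTCA, the cyclic AMP response element, a site of factors that also drive immediate early genes; it is in capitals.
Btg2, chr1:134079106-134079405, minus strand: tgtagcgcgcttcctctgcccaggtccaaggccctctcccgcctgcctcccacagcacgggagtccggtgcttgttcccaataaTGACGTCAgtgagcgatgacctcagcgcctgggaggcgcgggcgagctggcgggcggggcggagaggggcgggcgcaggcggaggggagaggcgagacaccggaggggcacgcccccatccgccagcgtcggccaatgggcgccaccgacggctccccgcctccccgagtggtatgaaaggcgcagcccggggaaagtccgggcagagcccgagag
Plk2, chr13:110394794-110395093, plus strand: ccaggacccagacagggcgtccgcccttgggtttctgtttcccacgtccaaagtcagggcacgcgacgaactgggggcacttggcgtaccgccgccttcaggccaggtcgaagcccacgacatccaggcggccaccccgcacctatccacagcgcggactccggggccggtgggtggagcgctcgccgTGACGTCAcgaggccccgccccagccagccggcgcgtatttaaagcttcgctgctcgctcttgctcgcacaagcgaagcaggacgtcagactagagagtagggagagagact
This element stood in 1.79% of all windows. The CArG box stood in 0 of the 10 windows and in 1.63% of all. Of the other letters searched on both strands, CCAAT stood in windows of 5 of 8 genes (37.4% of all windows), GGGCGG in those of 6 (35.7%), TATAAA in that of 1 (13.6%) and TTTGAA in those of 0 (17.9%). In the 5 windows printed, no match to the half-site or to TGACGTCA overlapped a match to another motif.

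Immediate early genes, which respond to growth and stress signals within minutes, mostly rose with oxygen at P14. Btg2, Plk2 and Plk3 rose there too on their lead probe sets, but the second Btg2 probe set gave -0.01 ± 0.12. With the actin term the Plk3 difference at P14 was 0.09. Of 18 immediate early genes measured, 13 rose (72.2%) and 2 fell at P14 (median 0.75), against 32.3% and 22.8% of all genes. At P29 5 rose (27.8%) and 3 fell (median -0.04), against 34.2% and 25.6% of all genes. Limma's test of the difference between the oxygen effects called 11.6% of all genes lower and 11% higher at P29, and it called Btg2 lower. Of the 18, the oxygen effect was lower at P29 than at P14 in 9 and higher in 0. Their mean log2 level was 8.53 to 8.56 in P14 room air, 9.21 to 9.47 in P14 hyperoxia, 8.99 to 9.36 in P29 room air and 9.05 to 9.43 in P29 hyperoxia, so P14 room air stood alone, as for Btg2 on its lead probe set. Klf4 rose by 1.43 ± 0.14 (SE) and Atf3 by 1.73 ± 0.21 at P14, and Ccn1 rose by 1.75 ± 0.21 at P14 and 1.77 ± 0.21 at P29. Jun fell by 0.67 ± 0.09 (-0.29 on another probe set) and Ier3 by 1.24 ± 0.17 at P29. With age in room air 10 of the 18 immediate early genes rose and 1 fell (median 0.84), against 22.2% and 19.1% of all genes. Plk2 fell there by 1.33 on its lead probe set. The oxygen effect on Plk2 was 0.41 at P14 and 0.76 at P29, where the list median was 0.75 and then -0.04.

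**Figure D2:**
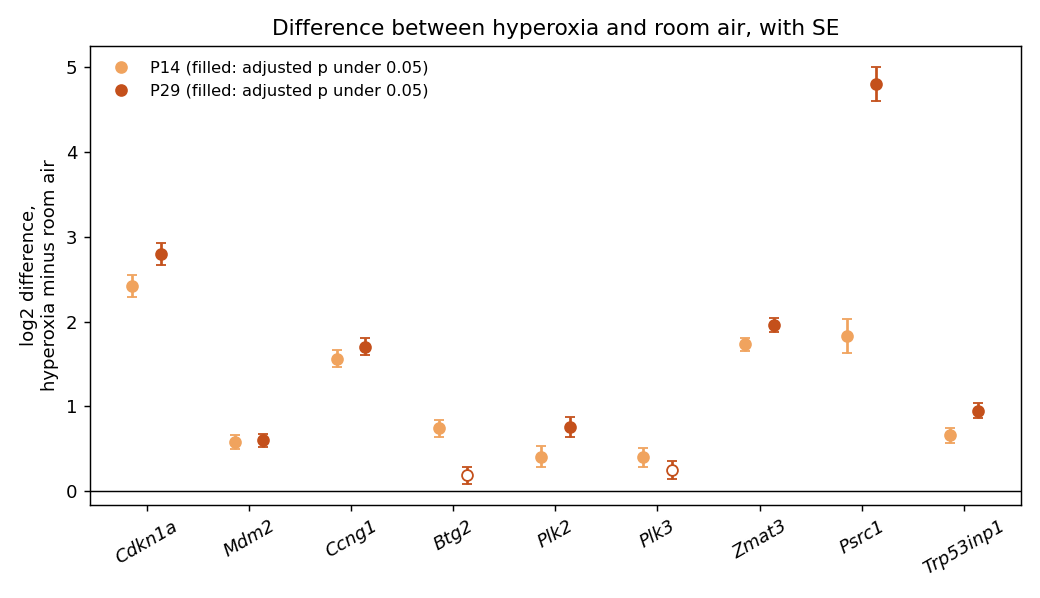
Log2 difference between hyperoxia and room air (vertical axis, bars are SE of the limma contrast) for the lead probe set of each gene at P14 and P29; open points did not pass. Cdkn1a, Ccng1 and Zmat3 lie between 1.56 and 2.79 at both ages, Psrc1 goes from 1.83 to a computed 4.80 against room-air values near the filter, and Btg2 and Plk3 are open at P29.

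The test of the difference between the ages called Psrc1 higher and Btg2 lower at P29, 2 of 9, where 11% of all genes were called higher, 11.6% lower and 22.5% in either direction. The other 7 differed by -0.14 to 0.38, with adjusted p of 0.148 to 0.941; this does not show that their effects were alike. For age in room air 4 of 9 rose (Mdm2, Ccng1, Btg2 and Zmat3) and 2 fell (Plk2 and Psrc1), against 22.2% and 19.1% of all genes (41.3% in either direction). For age in hyperoxia 4 rose (Cdkn1a, Mdm2, Ccng1 and Zmat3) and 1 fell (Plk2), against 15.4% and 11.7% (27.1% in either direction). These age comparisons use the same arrays as the oxygen comparisons. In room air they also set P14 arrays with Y-linked transcripts against P29 arrays without them, so age and sex cannot be told apart. The test of the difference between the oxygen effects includes the same room-air arrays and shares this limit.

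**Figure D3:**
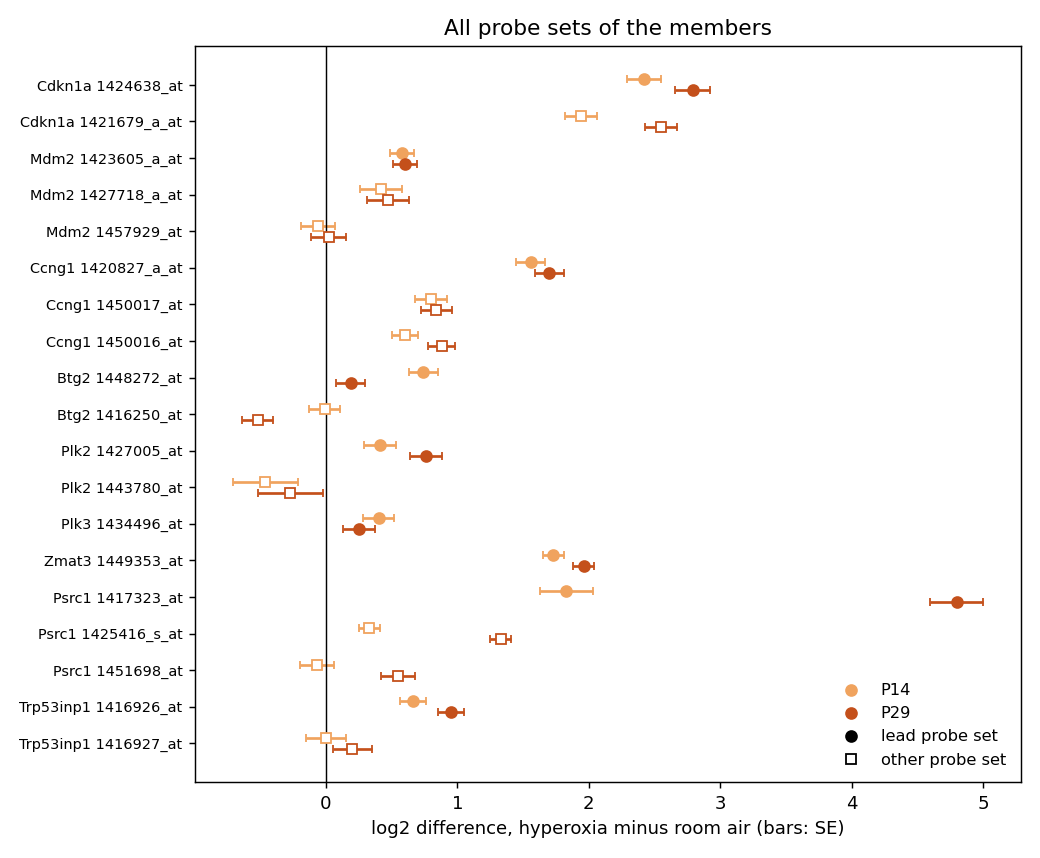
Log2 difference between hyperoxia and room air (horizontal axis, bars are SE) for all 19 probe sets of the 9 genes at P14 and P29; filled circles are lead probe sets and open squares the others. The squares of Cdkn1a and Ccng1 lie on the side of their leads, whereas the second Btg2 probe set lies at -0.01 and -0.52.

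Over the 10 other probe sets, 4 were higher, 0 lower and 6 not called at P14. At P29 6 were higher, 1, of Btg2, lower and 3 not called. That fit of 34945 probe sets called 42.9% and 47.2% of all in either direction. The share called higher alone was not computed. At P14 the 4 of 10 called is thus near the share of all probe sets called. By gene, rises at both ages were found on more than 1 probe set for Cdkn1a, Ccng1 and Psrc1. For Mdm2 this held at P29. For Plk2 and Trp53inp1 the lead was the only probe set called in either comparison, and Plk3 and Zmat3 had no other.

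The other known p53 targets and regulators examined beside these 9 are given next, by list. Of all genes 32.3% were higher at P14 and 34.2% at P29, and the list shares below can be read against that. Of 12 measured death targets 8 rose (66.7%) and 0 fell at P14 (median 0.53), and 5 rose (41.7%) and 0 fell at P29 (median 0.17). Eda2r, a death receptor of the tumour necrosis factor family, rose by 3.67 ± 0.11 (SE) and 4.31 ± 0.11, and Aen, a nuclease, by 1.15 ± 0.09 and 1.79 ± 0.09, with 0.76, 0.08 and -0.13 at P14 on its other probe sets. Of 9 repair and sestrin targets 3 rose (33.3%, near the share of all genes) and 1 fell at P14 (median 0.19), and 5 rose (55.6%) and 3 fell at P29 (median 0.39), with the repair polymerase Polk at 0.61 ± 0.09 and 0.97 ± 0.09 (0.13 and 0.28 on a dimmer probe set). Xpc, a damage sensor, fell by 0.30 ± 0.07 at P14. Of 12 other targets 7 rose (58.3%) and 1 fell at P14 (median 0.34), and 8 rose (66.7%) and 3 fell at P29 (median 0.37). Among them Phlda3, an inhibitor of Akt signalling, rose by 1.69 ± 0.10 at P29 and Tigar, a regulator of glycolysis, by 1.04 ± 0.10 at P14, although 2 dimmer probe sets of Tigar gave 0.12 and 0.25.

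Among 16 measured regulators of p53, 9 rose (56.2%) and 0 fell at P14 (median 0.31), and 9 rose (56.2%) and 1 fell at P29 (median 0.42). Chek1, a checkpoint kinase that is also high in dividing cells, rose by 1.06 ± 0.14 (SE) and 2.86 ± 0.14. Its other probe sets gave -0.06 to 0.67 at P14 and -0.01 to 2.07 at P29. Usp7, which removes ubiquitin from p53 and Mdm2, rose by 0.71 ± 0.09 at P14, but its 6 other probe sets gave -0.35 to 1.03. Trp53bp1, a damage response protein that binds p53, rose by 0.68 ± 0.10 and 1.42 ± 0.10, while its 5 other probe sets gave -0.05 to 0.10 and -0.28 to 0.65.

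**Figure D4:**
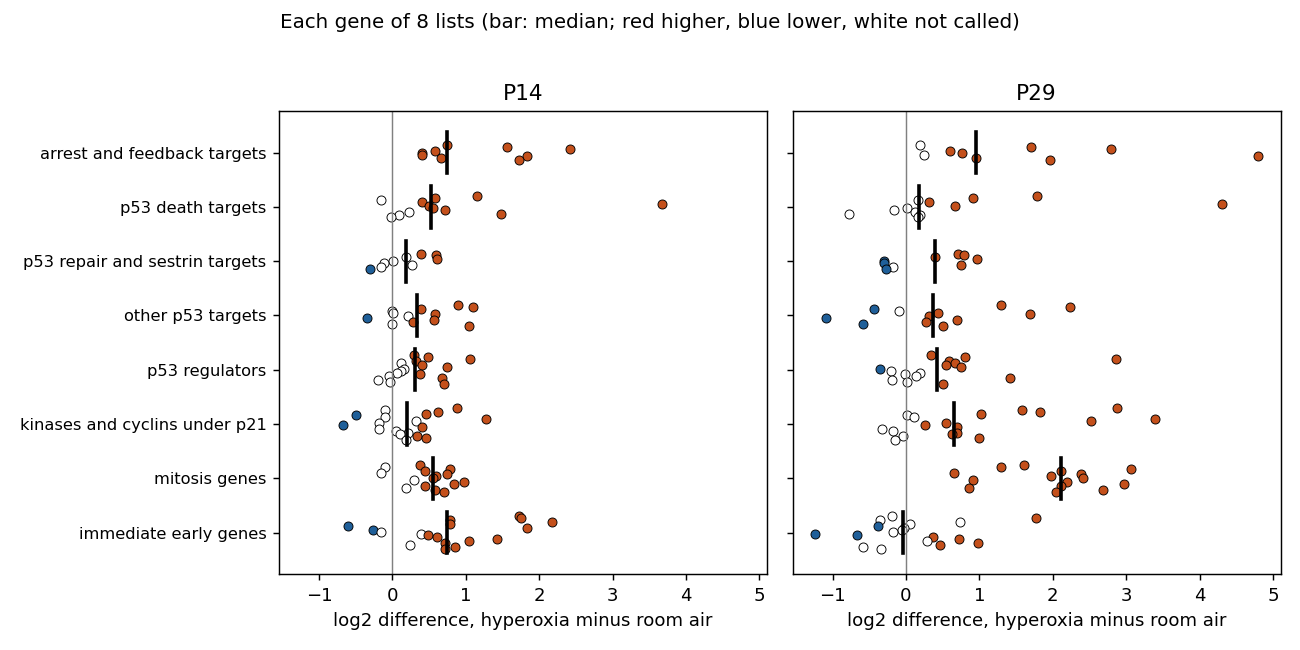
Log2 difference between hyperoxia and room air (horizontal axis) for every measured gene of the arrest and feedback targets and 7 further lists, at P14 and P29; red points rose, blue points fell, white points did not pass, and bars are list medians. The median of the arrest and feedback targets is 0.74 at P14 and 0.95 at P29, and that of the mitosis genes moves from 0.55 to 2.11.

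Kinases and cyclins that p21 acts on were examined with it, in 1 list with other cell cycle genes. The list also held Pcna, Rb1, Rbl1, Rbl2, E2f1, Cdkn1b and Cdkn1c, which are neither kinases nor cyclins. Of 18 measured, 7 rose (38.9%) and 2 fell at P14 (median 0.20), and 12 rose (66.7%) and 0 fell at P29 (median 0.66). With age in room air 10 fell and 2 rose, against 19.1% and 22.2% of all genes. Ccne2, a cyclin that drives entry into DNA replication, rose by 1.28 ± 0.17 (SE) and 3.39 ± 0.17. Ccnd1, a cyclin of early G1, rose by 0.62 ± 0.10 and 1.82 ± 0.10. Cdk4, its kinase partner, fell by 0.67 ± 0.08 at P14 and rose by 0.26 ± 0.08 at P29. On the P29 hyperoxia arrays Cdkn1a and the mitosis genes were both above P29 room air, although the mitosis mean there (8.04 to 8.11) lay within the range of P14 room air (8.01 to 8.31). RNA of whole lung does not show whether the same cells held both.

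Over the 10 arrays, which fall into 4 groups, likeness of pattern was described by Pearson's r between lead probe sets, with no test. Those nearest to Cdkn1a among 14987 genes were Zmat3 (r = 0.998), Eda2r (0.997) and the quinone reductase Nqo1 (0.996), and those nearest to Zmat3 were Cdkn1a, Nqo1 and Eda2r. Psrc1 was nearest to Polr1e (0.993), Ccne2 (0.992) and Hells (0.991). Nearest to Mdm2 were Steap4 (0.986), Zfp365 and Phkb, and nearest to Ccng1 were Tmem176a (0.994), Ptger4 and Spag1. Btg2 was nearest to Dnajc16 (0.987), Srebf1 and Capsl, Plk2 to Ptn (0.983), Eci2 and Peg3, Plk3 to Ncoa3 (0.964), Efcab1 and Mycl, and Trp53inp1 to Cep76 (0.998), Tex30 and Cryz. Between the 9 genes themselves, Cdkn1a stood at r of 0.756 to 0.998 with all but Plk2 (0.299). Group means set most of these values.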

How the data were processed

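RNA of 10 mouse lung samples was measured on 45101 probe sets. The authors deposited 1 table of log2 values, used as given. Per the submitters' processing notes, Partek 6.4 and GCRMA were involved; their settings are not stated in the material at hand. Groups and replicate numbers came from the titles. Of the probe sets, 34958 had 1 gene symbol in the platform annotation, 932 several and 9211 none; 64 control probe sets did not enter the fits. Entrez numbers of 34754 matched RefSeq's GRCm38.p6 table, with 0 symbols changed.

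Group means of all 10 arrays were fitted by lmFit and eBayes of limma 3.58.1 under R 4.3.3 (6 residual and 5.09 prior degrees of freedom), with 5 contrasts, two-sided tests and Benjamini-Hochberg adjustment over 14988 genes. SE is that of the contrast, and SD is between arrays. The check on other probe sets used a second fit of 34945 probe sets. Tested on simulated data of 14988 genes made for the P14 comparison, 57% of 100 genes changed by 0.5 and 93% of 100 changed by 1 (log2) were called, with 10 false calls among 160. Only those genes were changed there, with independent normal noise, whereas 55% of genes were called at P14 in the data. The simulated call rates therefore need not hold for the data. The members, gene lists and tests were chosen with earlier results of these data known. Named genes are all members, the 3 of smallest p per list and age (of which some are described), and the 3 nearest genes by r. Replicate numbers did not pair the arrays: deviations of same-numbered arrays correlated at -0.0992 to 0.197.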

Additional observations from a re-analysis of the deposited data

Results flagged for a closer look

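For 2 genes the oxygen effect differed between P29 and P14 in limma's test of the difference itself. That test includes the room-air groups, where all P14 arrays and no P29 array had Y-linked transcripts. Age and sex cannot be told apart in that part of it. Psrc1 had the higher effect at P29, by a computed 2.97 ± 0.28 (SE; adjusted p = 5.77e-05). Its P29 room-air values, 5.45 and 4.56, lie around the filter of log2 5, so this size is not settled, and the second probe set gave effects of 0.33 and 1.33, which also differed (adjusted p = 0.000404). On the lead probe set every P29 room-air array lay below every P14 room-air array. Btg2 had the lower effect at P29, by -0.56 ± 0.14 (adjusted p = 0.0177), with the P14 room-air arrays below all others. The second Btg2 probe set gave -0.50 ± 0.17 (adjusted p = 0.0875). Groups of 2 or 3 arrays are too small for a test of single outlying arrays.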

How the results depend on the processing

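Of 1008 values of single genes over all alternatives, 959 kept their direction and side of the threshold, 38 no longer passed, 10 newly passed and 1 reversed. The reversal was Plk2 at P14 with the mean over all probe sets of a gene (-0.03; adjusted p = 0.873), where its second, dim probe set counts as much as the bright one. The count of the 9 genes called at P14 went from 9 to 5 when the actin 3' excess joined the model (all genes: 8250 to 1391) and was 8 or 9 under every other alternative. At P29 it was 6 to 8 throughout (all genes with the actin term: 8950 to 2905). The calls on the difference between the effects went from 2 to 1 when P29 hyperoxia was taken by its female array alone (all genes: 3377 to 2087), and those on age in hyperoxia from 5 to 3 (4064 to 2088); that lone array is assumed to vary like the other groups. Because all P14 hyperoxia arrays had Y-linked transcripts, age in hyperoxia and sex cannot be told apart with that lone array. With the Y-linked level as a term, calls over all genes on age in room air went from 6195 to 3996. Causes of these shifts beyond fewer arrays were not tested. Leaving out single arrays gave 8 to 9 genes called at P14, 7 to 8 at P29, 1 to 2 for the difference, 4 to 6 for age in room air and 4 to 6 for age in hyperoxia; the count of 1 came without P29 room air replicate 1. Replicate numbers gave no real pairing; with them as a replicate block the counts were 9, 7, 2, 5 and 5, Zmat3 in room air no longer passing (0.23; adjusted p = 0.0726). With the 75th percentile scaling the median of all genes was -0.06 at P14 and -0.10 at P29, against 0.04 and 0.04. Groups of 2 and 3 arrays and dim probe sets without detection calls limit these values.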
